A study of Mus musculus with 12 samples.

Results

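The sarcomeric myosin heavy and light chains were followed in cultured mouse muscle cells. The 10 genes were taken by name as a family: the heavy chains Myh1, Myh2, Myh3, Myh4, Myh7 and Myh8 and the light chains Myl1, Myl2, Myl4 and Mylpf. All 10 were found among the 20201 genes of the table, and no measured value was used to choose them. The cells were myotubes, the multinucleated fibres that primary myoblasts form on fusion, grown from mice that all carried a floxed Bmal1 gene. According to the design text, the cells spent 48 hours with an adenovirus, either an empty control or one carrying Cre, the recombinase that cuts out a floxed segment, and then 6 hours in 21% or 1% oxygen. The labels give 6 libraries as wildtype in 21% oxygen and 6 as Bmal1 knockout in 1% oxygen, so genotype and oxygen cannot be told apart in the comparison of the labels. The titles run from 1 to 12 and fall into 4 blocks of 3: wildtype in titles 1 to 3 and 7 to 9, knockout in titles 4 to 6 and 10 to 12. Titles 1 to 6 are called set 1 and titles 7 to 12 set 2. Replicates 1 to 3 of each label belong to set 1 and replicates 4 to 6 to set 2.

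Each sarcomeric myosin molecule holds a pair of heavy chains, which carry the motor, and each heavy chain binds an alkali (essential) and a regulatory light chain. Developing muscle first uses embryonic and neonatal heavy chains, and adult fibres replace them with a slow form or with the fast forms IIa, IIx and IIb, which differ in shortening speed. Light chains have developmental, fast and slow forms as well. Bmal1, listed here under the older symbol Arntl, encodes a transcription factor of the circadian clock.

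RNA was sequenced from stranded total RNA libraries, and values are normalized counts, that is, reads divided by 1 scaling factor per library. The libraries held 6376584 to 12463339 reads, of which 8 abundant genes took 49.2% to 65.4%, and 3 reads corresponded to 2.12 to 5.85 normalized counts. Wildtype replicate 2 had the fewest reads in total and had 29.6% of genes at 0, against 13.0% to 21.9% in the others. Knockout replicate 4 held 6671694 reads, of which the abundant genes took 65.4%. There 1 read stood for 1.95 normalized counts, the most of any library, against 1.55 in wildtype replicate 2. The targeted gene followed the labels: Arntl had a lowest, median and highest value of 133, 156 and 179 in the libraries labelled wildtype and 41.7, 44.1 and 48.6 in those labelled knockout (log2 difference -1.78, adjusted p = 2.34e-07 in limma). The sets differed in hypoxia-responsive genes whatever the label. Egln3, an oxygen-dependent prolyl hydroxylase, averaged 251 and 219 in the wildtype and knockout libraries of set 1 and 2225 and 2078 in those of set 2. Slc2a1, a glucose transporter, averaged 517 and 573 in set 1 and 3486 and 3353 in set 2. The labels do not say how the sets differ, and no oxygen level was assigned to a set. Nothing in the labels names separate cultures, animals or batches, so the spread that p-values are measured against may be technical.

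Between the labels the light chains Myl1, Myl4 and Mylpf were higher in the knockout libraries, the embryonic and neonatal heavy chains did not pass the test, and the adult fast heavy chains moved apart. Of the 10 genes, 8 reached a mean of 10 normalized counts and entered the test across 12553 genes. In the knockout libraries Myl1, Myl4, Mylpf, Myh4 and Myh7 rose and Myh1 fell, 5 higher and 1 lower by limma with Benjamini-Hochberg adjustment. Myh7, with a mean of 9.08 in wildtype and 24.9 in knockout libraries, reached the minimum of 10 through the knockout libraries. Among all genes tested, 10.2% were called higher, 9.07% lower and 19.2% in either direction. The median log2 difference was 0.70 over the 8 genes and -0.00147 over all genes tested. Fold changes are on the log2(normalized count + 1) scale, and those of genes with low counts depend on the scale used. For Myh7 that scale gave 2.94-fold and the ratio of the means 2.74-fold. In bulk RNA, fewer cells of a type and less RNA per cell cannot be told apart.

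**Figure D1:**
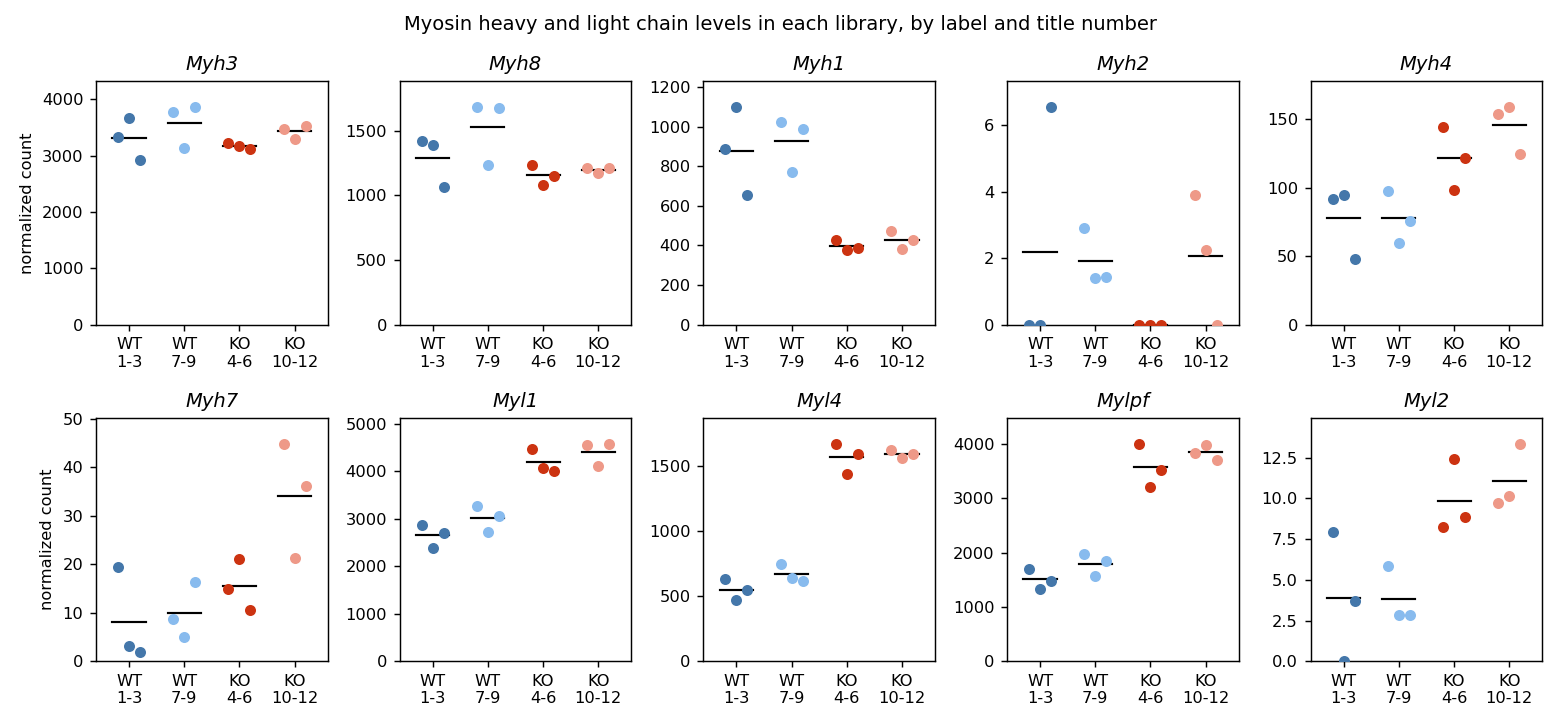
Normalized count of each myosin gene in each library, 1 panel per gene with its own axis from 0. Columns are the 4 blocks of titles (WT, labelled wildtype; KO, labelled knockout), points are libraries and bars are block means of 3 libraries. Myl1, Myl4, Mylpf and Myh4 lie higher, and Myh1 lower, in every knockout library than in any wildtype library.

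Myh3 (ENSMUSG00000020908; mm10 chromosome 11, 67078300 to 67102291, plus strand) encodes the embryonic heavy chain. It had 3337, 3660 and 2925 normalized counts in titles 1 to 3 and 3771, 3126 and 3858 in titles 7 to 9, all labelled wildtype. The knockout libraries had 3225, 3168 and 3109 in titles 4 to 6 and 3470, 3292 and 3532 in titles 10 to 12. The labels overlapped throughout, and the highest and the lowest library were both wildtype. Wildtype libraries averaged 3446 ± 376 and knockout libraries 3299 ± 169 (SD, n = 6 per label), and the log2 difference of -0.06 (SE 0.07) did not pass the test (adjusted p = 0.664, limma).

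Myh8 (ENSMUSG00000055775; chromosome 11, 67277124 to 67308634, plus strand) encodes the neonatal, or perinatal, heavy chain. The wildtype libraries had 1418, 1388 and 1066 normalized counts in set 1 and 1682, 1232 and 1674 in set 2. Knockout libraries had 1233, 1081 and 1152 in set 1 and 1211, 1174 and 1212 in set 2. The knockout values lay close together, and the lowest value of all 12 was a wildtype library, replicate 3. The mean was 1410 ± 243 in wildtype and 1177 ± 55.3 in knockout libraries. The log2 difference was -0.24 (SE 0.10), which did not pass the adjusted test (adjusted p = 0.119, limma), while the exact two-sided permutation test of this gene alone gave p = 0.0455. Without wildtype replicate 3 the log2 difference was -0.32 and Myh8 was called lower (adjusted p = 0.0221). The scaling decided both developmental chains. With the 8 abundant genes left out and libraries rescaled to the rest, which moved the median of all genes to -0.17, Myh3 stood at -0.22 (adjusted p = 0.0242) and Myh8 at -0.41 (adjusted p = 0.00714). Quantile scaling gave -0.35 (adjusted p = 0.00311) for Myh3 and -0.44 (adjusted p = 0.00638) for Myh8.

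Myh1 (ENSMUSG00000056328; chromosome 11, 67200052 to 67224575, plus strand) encodes the fast IIx heavy chain and was the only heavy chain called lower in the main test. Its wildtype values were 885, 1098 and 652 normalized counts in set 1 and 1022, 770 and 986 in set 2. Its knockout values were 426, 379 and 390 in set 1 and 472, 384 and 427 in set 2. Every knockout library lay below every wildtype library, and the lowest wildtype value was again replicate 3. From 902 ± 167 in wildtype to 413 ± 35.6 in knockout libraries (SD, n = 6), the log2 difference was -1.11 (SE 0.12; adjusted p = 2.94e-05, limma), a 2.15-fold lower level. All 12 values were free of overlap between the labels, in either direction, for 12.4% of the genes tested, with 5.38% lower and 7.07% higher in the knockout libraries.

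Myh4 (ENSMUSG00000057003; chromosome 11, 67238029 to 67260446, plus strand) encodes the fast IIb heavy chain, the fastest of the adult limb forms. It stood at 91.6, 94.5 and 47.6 normalized counts in the wildtype libraries of set 1 and at 97.9, 59.4 and 75.7 in those of set 2. Knockout libraries stood at 144, 98.3 and 122 in set 1 and at 154, 159 and 125 in set 2. The labels did not overlap, although the lowest knockout library (98.3) lay just above the highest wildtype library (97.9). The mean was 77.8 ± 20.6 against 134 ± 23.0 (SD, n = 6), which is a log2 difference of 0.80 (SE 0.19; adjusted p = 0.00850, limma) or a 1.74-fold higher level. Myh1 and Myh4, both adult fast forms, therefore stood on opposite sides of 0 in the same libraries.

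Myh2 (ENSMUSG00000033196; chromosome 11, 67171027 to 67197517, plus strand), which encodes the fast IIa heavy chain, was near the floor. Its highest value was 6.54 normalized counts, 7 reads, in wildtype replicate 3. It was at 0 reads in wildtype replicates 1 and 2 and in knockout replicates 1, 2, 3 and 6, and at 2 to 4 reads in the other libraries. With a mean of 1.54 it was not tested, and no fold change is given. A difference in the IIa form was not detectable at this depth.

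Myh7 (ENSMUSG00000053093; chromosome 14, 54970684 to 54994626, minus strand) encodes the slow heavy chain, which heart muscle shares. The wildtype libraries had 19.4, 3.10 and 1.87 normalized counts in set 1 and 8.77, 4.95 and 16.4 in set 2. The knockout libraries had 14.8, 21.2 and 10.6 in set 1 and 44.8, 21.4 and 36.2 in set 2. These values rest on 2 to 23 reads per wildtype library, with 2 reads in replicates 2 and 3, and on 12 to 38 per knockout library. The labels overlapped in set 1 and did not in set 2. Wildtype libraries averaged 9.08 ± 7.27 and knockout libraries 24.9 ± 13.1 (SD, n = 6), with a log2 difference of 1.56 (SE 0.51) that just passed the test (adjusted p = 0.0479, limma). The call was lost in 9 of the 12 fits that each left out 1 library, with adjusted p between 0.0237 and 0.102 over the 12. These were the fits without wildtype replicate 2, 3, 4 or 5 and without knockout replicate 1, 2, 4, 5 or 6. It was also lost in edgeR on the recovered reads (adjusted p = 0.0752), without a filter on low values (0.0646), with the abundant genes left out (0.0599) and with the trend with length and GC content removed (0.0501).

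Myh3, Myh2, Myh1, Myh4 and Myh8 follow each other in this order on the plus strand of chromosome 11. Their neighbours were nearly silent: the non-coding genes 2310065F04Rik, 9430073C21Rik and Myhas on the minus strand, and Myh13, did not exceed 2.85 normalized counts in any library. Myhas is an antisense transcript that starts at 67237573, short of the annotated start of Myh4 at 67238029, and ends within Myh1. That start lies inside the RefSeq window printed for Myh4 below. The highest value of Myhas was 1.41. The library kit keeps strand, but no source used here gives the strand setting of the counting. The heavy chain genes share sequence, so their reads are partly assigned by estimate. Windows of 50 bases were taken from the annotated transcript of each gene that has the longest coding sequence. Of these windows, 27.4% of those of Myh1, 27.2% of Myh2, 22.6% of Myh7, 21.4% of Myh8, 18.9% of Myh4 and 4.85% of Myh3 occur in another gene too. Myh1 shares 20.1% of its windows with Myh2 and Myh4 shares 10.6% with Myh1. No source used here gives the read length, and the levels of these paralogues are uncertain to that extent.

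**Figure D2:**
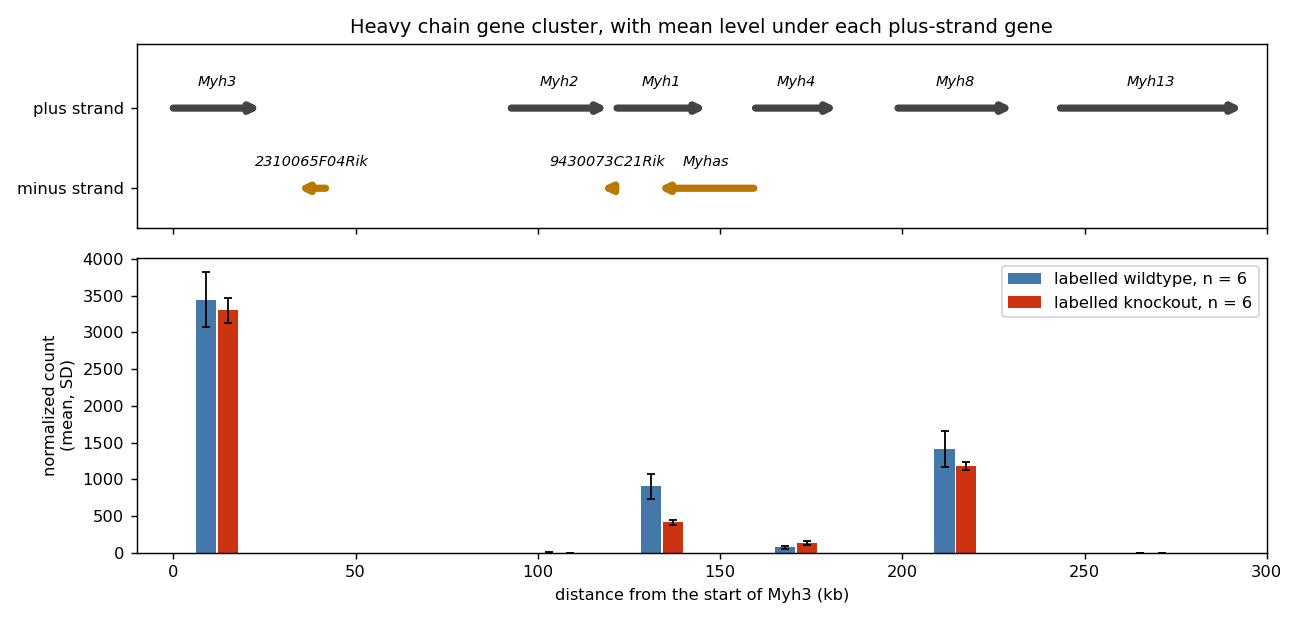
Heavy chain cluster on mouse chromosome 11. The upper panel shows each gene as an arrow in its direction of transcription against distance from the start of Myh3 in kb. The lower panel shows the mean normalized count of the plus-strand genes in wildtype and knockout libraries (n = 6 each, error bars SD): Myh1 falls from 902 to 413, and Myh4 rises from 77.8 to 134 on the same axis.

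The promoters of Myh1 (called lower), Myh4 (called higher) and Myh8 (not called) are shown. The upstream sequences of these neighbours hold an identical stretch, and whether it bears on their levels was not tested. RefSeq promoter windows (GRCm38.p6, which has the coordinates of mm10) were available for all 10 genes. Capitals mark the stretch of 14 bases that is the longest run common to the windows of Myh1, Myh2, Myh4 and Myh8. The windows printed, without Myh2, share a longer run that is not marked, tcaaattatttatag. It holds the 1 match of each printed window to the MEF2 motif. That motif was found in 2.92% of all windows, with 0 matches in that of Myh2. The windows are the 250 bases before the RefSeq start, on the plus strand at chr11:67199852-67200101 for Myh1, chr11:67237562-67237811 for Myh4 and chr11:67276874-67277123 for Myh8.
Myh1: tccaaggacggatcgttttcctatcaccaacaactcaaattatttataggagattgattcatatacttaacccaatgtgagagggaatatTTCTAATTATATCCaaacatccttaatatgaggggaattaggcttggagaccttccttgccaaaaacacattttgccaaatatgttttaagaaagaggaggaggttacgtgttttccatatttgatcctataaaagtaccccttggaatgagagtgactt
Myh4: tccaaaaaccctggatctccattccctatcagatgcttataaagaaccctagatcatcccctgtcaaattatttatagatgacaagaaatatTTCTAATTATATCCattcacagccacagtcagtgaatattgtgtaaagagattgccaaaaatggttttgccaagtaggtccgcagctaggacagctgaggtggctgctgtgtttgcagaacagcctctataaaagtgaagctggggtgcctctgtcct
Myh8: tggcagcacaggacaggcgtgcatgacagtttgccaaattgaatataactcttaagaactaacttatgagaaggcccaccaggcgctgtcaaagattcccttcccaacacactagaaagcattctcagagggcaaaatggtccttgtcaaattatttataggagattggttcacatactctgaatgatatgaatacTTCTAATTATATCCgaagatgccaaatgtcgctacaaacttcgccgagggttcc
The stretch TTCTAATTATATCC, searched on both strands, was found in 4 of 32851 RefSeq windows (0.0122%), those of the 4 heavy chain genes named. Its presence there was fixed in advance, because the stretch was chosen from these windows. The genes are neighbouring paralogues, and the share is no measure of rarity. It was not in the window of Myh3. Counting back from the start, its first base lies at position -160 in Myh1, -158 in Myh4, -125 in Myh2 and -54 in Myh8. TATAAA was found on either strand in 12.4% of windows, and by that count Myh1 held 2 matches, Myh4 3 and Myh8 1. On the plus strand the match nearest the start begins at -32 in Myh1 and -31 in Myh4, and Myh8 had none on that strand. These matches do not overlap the 14-base stretch. The RefSeq start of Myh4 lies 217 bases from the nearest GENCODE start, against 9 bases for Myh1 and 0 for Myh8.

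The light chains that entered the test were all called higher in the knockout libraries. Myl1 (ENSMUSG00000061816; chromosome 1, 66924295 to 66945404, minus strand) encodes the fast alkali light chains, whose long and short forms come from alternative promoters and are not told apart here. The wildtype libraries had 2870, 2397 and 2709 normalized counts in set 1 and 3280, 2732 and 3071 in set 2. The knockout libraries had 4476, 4076 and 4017 in set 1 and 4562, 4106 and 4581 in set 2. All 6 knockout libraries lay above all 6 wildtype libraries. Means of 2843 ± 307 and 4303 ± 263 (SD, n = 6) gave a log2 difference of 0.60 (SE 0.08; adjusted p = 0.000106, limma), or 1.52-fold higher. Of the windows of 50 bases in the Myl1 transcript with the longest coding sequence, 23.4% occur also in its pseudogene Mylf-ps. The transcripts so chosen for Myl4, Mylpf and Myl2 share none with another gene.

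Myl4 (ENSMUSG00000061086; chromosome 11, 104550663 to 104595753, plus strand) encodes the embryonic alkali light chain, which the adult atria keep. Wildtype libraries had 637, 471 and 550 normalized counts in set 1 and 749, 639 and 617 in set 2. In knockout libraries the values were 1673, 1443 and 1596 in set 1 and 1624, 1565 and 1598 in set 2. The gap between the labels was wide, with 749 as the highest wildtype and 1443 as the lowest knockout value. From 611 ± 93.6 to 1583 ± 77.5 (SD, n = 6) the log2 difference was 1.39 (SE 0.09; adjusted p = 9.01e-07, limma), or 2.61-fold higher. The embryonic light chain thus rose in libraries in which the embryonic heavy chain Myh3 did not pass the test.

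Mylpf (ENSMUSG00000030672; chromosome 7, 127208890 to 127214298, plus strand) encodes the fast regulatory light chain. Its wildtype values were 1704, 1338 and 1487 normalized counts in set 1 and 1980, 1568 and 1843 in set 2. Its knockout values were 4001, 3200 and 3523 in set 1 and 3841, 3986 and 3712 in set 2. The labels did not overlap in either set. Means of 1653 ± 237 and 3710 ± 308 (SD, n = 6) gave a log2 difference of 1.17 (SE 0.09; adjusted p = 3.48e-06, limma), or 2.26-fold higher. The Mylpf window is shown as the light chain promoter whose RefSeq and GENCODE starts coincide and which holds an E-box, CANNTG, the core letters bound by myogenic and clock bHLH factors; the E-box is in capitals (GRCm38.p6, chr7:127211358-127211607, plus strand).
Mylpf: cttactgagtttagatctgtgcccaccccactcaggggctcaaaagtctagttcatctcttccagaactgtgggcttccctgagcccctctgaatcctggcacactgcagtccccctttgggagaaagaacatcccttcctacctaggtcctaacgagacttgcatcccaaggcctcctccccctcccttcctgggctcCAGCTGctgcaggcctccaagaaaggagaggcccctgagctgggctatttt
CANNTG reads alike on both strands and was found in 66.2% of RefSeq windows, so its presence sets no window apart. The windows of Myl1, Mylpf, Myh3 and Myh8 held 1 match each and that of Myh4 held 2, while those of Myh1, Myh2 and Myl4 held 0. CACGTG, the E-box form known for BMAL1 and CLOCK and a special case of CANNTG, was in none of the 12 windows of the 10 genes and in 6.02% of all windows. Absence of these letters from a short window says nothing about binding elsewhere.

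Myl2 (ENSMUSG00000013936; chromosome 5, 122100951 to 122113472, plus strand) encodes the regulatory light chain of slow fibres and heart ventricles. It had 7.92, 0 and 3.74 normalized counts in the wildtype libraries of set 1 and 5.84, 2.83 and 2.85 in those of set 2. The knockout libraries had 8.24, 12.4 and 8.87 in set 1 and 9.75, 10.1 and 13.4 in set 2. These values rest on 0 to 9 reads per wildtype library and 5 to 14 per knockout library. The mean of 7.17 lay under the minimum for the test across genes. The labels did not overlap (exact two-sided permutation p = 0.00216, the smallest that 924 relabellings can give, unadjusted and 1 of 10 genes tested so). Without the filter the log2 difference was 1.49 (adjusted p = 0.0487, limma). At 0 reads, wildtype replicate 2 allows a level of up to 4.65 normalized counts, counting error alone considered.

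Levels were compared between genes per kb of coding sequence and, since the order depends on the length used, per kb of merged exons too. Per kb of coding sequence, Myl1, Mylpf and Myl4 led in both labels, while Myl2 had rank 8 of 10. In the wildtype libraries the mean level per kb was 5041 for Myl1, 3261 for Mylpf, 1055 for Myl4, 592 for Myh3, 243 for Myh8 and 155 for Myh1, and the ranges of neighbours in this order overlapped only for Myh8 and Myh1. Below them came Myh4 with 13.4, Myl2 with 7.32, Myh7 with 1.56 and Myh2 with 0.352, each overlapping the next. In the knockout libraries Myl1 with 7630 and Mylpf with 7319 overlapped, followed by Myl4 with 2734, Myh3 with 567, Myh8 with 203 and Myh1 with 70.9, none of which overlapped the next. Myh4 with 23.0 and Myl2 with 19.8 overlapped, and Myh7 with 4.28 and Myh2 with 0.176 came last. Per kb of merged exons, which count the untranslated ends, the order changed. Mylpf then averaged 1557 and Myl1 1371 in wildtype libraries and 3494 and 2075 in knockout libraries. Myl4 averaged 132 in wildtype libraries, below Myh3 (569) and near Myh1 (142) and Myh8 (120), and 341 in knockout libraries against 545 for Myh3. On either scale, Myl1 and Mylpf made up most of the light chain level and Myh3 most of the heavy chain level.

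The make-up of the heavy chains was described as each gene's share of their summed level per kb of merged exons, a ratio within a library that no scaling between libraries changes. Myh3 held 67.5% ± 1.73 in wildtype and 74.1% ± 0.937 in knockout libraries (SD, n = 6 each). Myh1 held 16.7% ± 1.32, between 15.0% and 19.0%, in wildtype libraries and 8.84% ± 0.447, between 8.25% and 9.50%, in knockout libraries. Myh8 held 14.1% ± 0.920 and 13.6% ± 0.503, with overlapping labels. Myh4 held 1.51% ± 0.282 and 3.02% ± 0.458, and Myh7 stayed at or under 0.666% in each library. Wildtype and knockout libraries did not overlap in the shares of Myh3, Myh1 and Myh4. Myh3 thus had a larger share in the knockout libraries while its own level did not pass the test. Among the alkali light chains, Myl4 held 8.74% ± 0.591 of the summed level of Myl1 and Myl4 in wildtype and 14.1% ± 0.616 in knockout libraries, without overlap. Per kb of coding sequence, which leaves out long untranslated ends, these Myl4 shares were 17.2% and 26.4%. On that scale Myh8 held 24.1% and 23.4% and Myh1 held 15.3% and 8.16%.

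**Figure D3:**
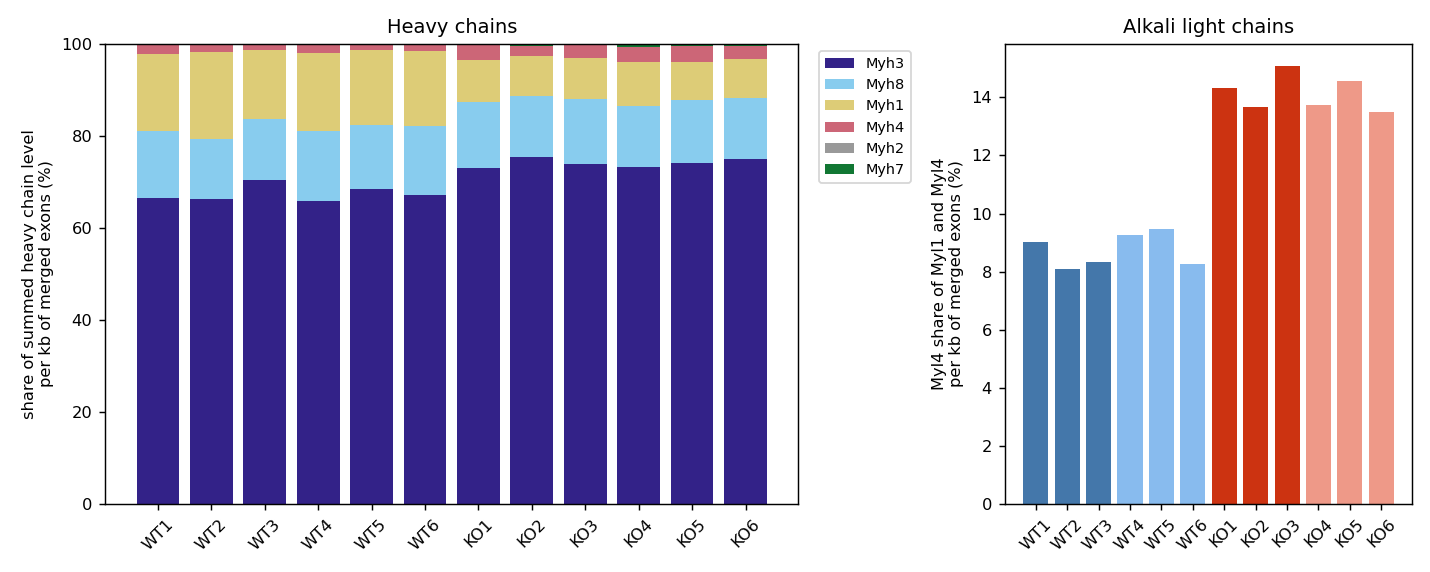
Isoform make-up in each library, per kb of merged exons. The left panel stacks the share of each heavy chain in their summed level (percent), and the right panel shows the share of Myl4 in Myl1 and Myl4 (percent); bars are single libraries (WT, labelled wildtype; KO, labelled knockout; numbers are replicates). Myh1 takes 15.0% to 19.0% in wildtype and 8.25% to 9.50% in knockout libraries.

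Summed over the genes, light chain counts were higher relative to heavy chain counts in the knockout libraries, a description with no test. The 6 heavy chains summed to 4700 to 6243 normalized counts in wildtype libraries of set 1 and 5193 to 6612 in those of set 2, and to 4748 to 5043 and 5032 to 5356 in knockout libraries. The 4 light chains summed to 4206 to 5220 and 4942 to 6015 in wildtype libraries and to 8732 to 10159 and 9667 to 10037 in knockout libraries. The heavy chain sums overlapped between labels and the light chain sums did not. Per kb of coding sequence, the light chain level was 7.18 to 10.8 times the heavy chain level in wildtype and 19.7 to 21.6 times in knockout libraries. Per kb of merged exons the same ratio was 2.76 to 4.13 and 7.64 to 8.62.

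Within each set the label difference was tested again, in 1 fit of the 4 blocks. In set 1, titles 4 to 6 against 1 to 3, Myl1, Myl4 and Mylpf rose and Myh1 fell, 3 higher and 1 lower of 8, where 18.8% of all genes were called, 10.8% higher and 7.97% lower. In set 2, titles 10 to 12 against 7 to 9, Myl1, Myl4, Mylpf and Myh4 rose and Myh1 fell, 4 higher and 1 lower of 8, where 16.5% of all genes were called, 8.84% higher and 7.64% lower. Myh1 differed by -1.11 (SE 0.16) in both sets (adjusted p = 0.000507 and 0.000710, limma). Myl4 differed by 1.51 and 1.26 (SE 0.11 each), Mylpf by 1.24 and 1.10 (SE 0.11 each) and Myl1 by 0.66 and 0.55 (SE 0.09 each) in sets 1 and 2. With quantile scaling Myl1 in set 2 dropped to 0.25 and did not pass (adjusted p = 0.104). Myh4 differed by 0.68 (SE 0.26; adjusted p = 0.0882) in set 1 and 0.92 (SE 0.26; adjusted p = 0.0295) in set 2. That call of Myh4 was lost without wildtype replicate 5 (adjusted p = 0.118) or 6 (0.0772), without knockout replicate 4 (0.0876) or 5 (0.0927), and with the abundant genes left out (0.0596); in set 1 Myh4 was called without wildtype replicate 2 (0.0427). Myh8 differed by -0.15 and -0.34 and Myh7 by 1.36 and 1.75, and neither passed in either set. For Myh1, Myh4, Myl1, Myl4, Mylpf and Myl2 the labels did not overlap within either set, and for Myh7 and Myh8 they did not in set 2. With 3 libraries against 3 that is common: the 6 values were free of overlap for 34.5% of all genes tested in set 1 (18% higher, 16.5% lower) and for 40.2% in set 2 (21% higher, 19.2% lower).

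**Figure D4:**
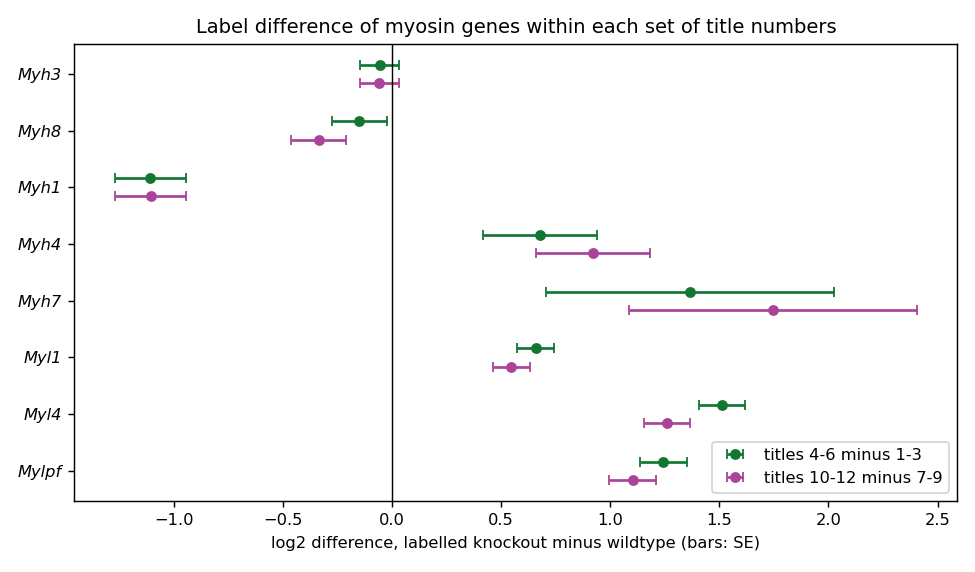
Log2 difference between labelled knockout and wildtype libraries for the 8 tested myosin genes, within titles 1 to 6 and within titles 7 to 12 (points; bars are SE; 3 libraries against 3). Myh1 lies at -1.11 in both sets, and the light chains lie between 0.55 and 1.51.

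The difference of the label effect between sets was itself tested, and 0 of the 8 genes passed, where 0.00797% of all genes, 1 gene, were called. The 8 interaction terms lay between -0.25 and 0.38 on the log2 scale, with a smallest adjusted p of 0.638 (limma). Between sets within a label, too, 0 of 8 passed. In the wildtype libraries, set 2 exceeded set 1 by 0.03 to 0.69 (smallest adjusted p = 0.0946, for Myl4), where 16.8% of all genes were called, 9.79% higher and 6.96% lower. In the knockout libraries it exceeded set 1 by 0.03 to 1.08 (smallest adjusted p = 0.301), where 19% of all genes were called, 11.2% higher and 7.89% lower. All 8 point estimates were above 0 in both labels, and several turned below 0 under other scalings. The sets, which differed many-fold in Egln3 and Slc2a1, thus gave no called difference in these 8 myosin genes, which does not show that they were equal.

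Light and heavy chain transcripts differ greatly in length, and the label difference varied with length over all genes. The median log2 difference was 0.13 in the shortest of 5 length bins, with 94 to 2486 bases of merged exons, and -0.06 in the longest, from 7787 bases. With the trend with length and GC content removed from each library, a setting chosen after seeing the data, Mylpf stood at 1.01, Myl4 at 1.36, Myl1 at 0.64, Myh4 at 0.78 and Myh1 at -1.12, and all 5 were still called. Over the 24 alternatives of the label comparison these 5 genes kept their calls, with log2 differences between -1.27 and -1.05 for Myh1, 0.64 and 0.89 for Myh4, 0.31 and 0.65 for Myl1, 1.22 and 1.45 for Myl4, and 0.91 and 1.23 for Mylpf.

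**Figure D5:**
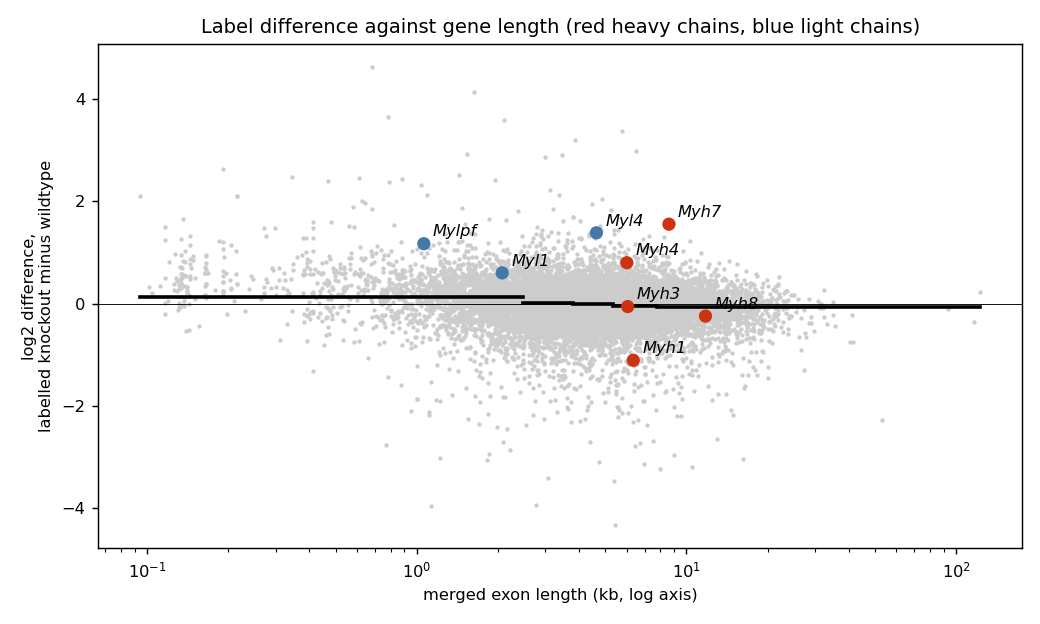
Log2 difference between labelled knockout and wildtype libraries against merged exon length (kb, log axis) for 12494 genes with an annotated length (grey points). Red points are heavy chains and blue points light chains, and black lines give the median in 5 length bins, from 0.13 in the shortest to -0.06 in the longest. Myh1 at -1.11 and Myh4 at 0.80 have nearly the same length.

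Other genes of the myosin system were counted from lists of partners, chosen with earlier results of these data known. For these and the marker lists below, the shares of all genes called are the background. Between labels they were 10.2% higher and 9.07% lower, in set 1 10.8% and 7.97%, and in set 2 8.84% and 7.64%. Of 8 further sarcomeric myosin genes, 5 were in the table and 2 were tested. Myl6b, known in human as a slow-muscle alkali light chain, rose from a mean of 91.1 ± 14.6 to 289 ± 28.4 (SD, n = 6; normalized counts), a log2 difference of 1.66 (adjusted p = 1.09e-06, limma), while Myh7b, a slow-type heavy chain gene, did not pass between labels. Myh7b followed the sets: it averaged 3.26 in wildtype and 5.39 in knockout libraries of set 1 and 32.2 and 27.2 in those of set 2. It was called higher in set 2 in wildtype (log2 difference 3.40, adjusted p = 0.00491) and, narrowly, in knockout libraries (2.15, adjusted p = 0.0494, limma). Myh7b reached the minimum mean for the test only through the libraries of set 2, where it was higher. Its means in set 1 lay near the floor, so the size of these log2 differences depends on the scale used. Of 8 nonmuscle and smooth muscle myosin genes, 2 were called higher, Myl6 (0.45) and Myh9 (0.22), and 1 lower, Myh14 (-1.07); the count was 2 higher and 1 lower in set 1 and 3 and 0 in set 2. Myh9, a nonmuscle heavy chain, stood at -0.14 with quantile scaling, and over the 12 fits that left out 1 library Myh9 lost its call in 9 and Myh14 in 6.

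Kinases and phosphatase subunits that act on the regulatory light chain gave 0 higher and 3 lower of 6 tested: Mylk4 (-1.41), Mylk2 (-0.87), the skeletal muscle light chain kinase, and Ppp1r12a (-0.30), a targeting subunit of myosin phosphatase. Within sets the calls differed in number, 0 higher and 3 lower in set 1 and 1 higher and 0 lower in set 2, and with the title set as a covariate they were 1 higher and 4 lower. Ppp1r12a lost its call with the length and GC trend removed (log2 difference -0.13) and in 8 of the 12 fits that left out 1 library. Of 8 tested partners in the thick filament and M-band, 3 rose and 4 fell (2 and 4 in set 1, 2 and 2 in set 2). The count was 1 higher and 5 lower with the abundant genes left out and 2 higher and 3 lower with the length and GC trend removed. Among them Myom3, an M-band protein, rose from 247 to 414 normalized counts (log2 difference 0.74; adjusted p = 0.000118, limma). Mybpc1, slow myosin-binding protein C, fell from 624 ± 44.9 to 356 ± 28.9 (log2 difference -0.81; adjusted p = 8.05e-06, limma). Mybpc2, its fast counterpart, differed by -0.77, and Mybph by 0.43. Mybph lost its call with the abundant genes left out and with the length and GC trend removed, and Myom2, an M-band protein called higher (0.40), with quantile scaling and with the abundant genes left out. Ttn, the giant titin gene, was called lower (-0.36) but stood at 0.13 with the length and GC trend removed.

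Genes of myosin folding and turnover gave 2 higher and 2 lower of 8 (2 and 1 in set 1, 2 and 2 in set 2). Smyd1, a methyltransferase that myosin assembly needs, rose from 305 to 547 normalized counts (log2 difference 0.85; adjusted p = 4.71e-05, limma), and Hsp90ab1, a chaperone, by 0.31, which turned to -0.06 with quantile scaling. The ubiquitin ligase genes Fbxo32 (-1.25) and Trim63 (-0.75), whose products act in muscle protein breakdown, fell. Unc45b, the myosin chaperone of striated muscle, averaged 239 and 228 and did not pass.

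Regulators of fibre type gave 1 higher and 8 lower of 15 (0 and 7 in set 1, 1 and 6 in set 2), with a median log2 difference of -0.52. Sox6, a repressor of slow fibre genes, fell from 58.3 to 12.9 normalized counts (log2 difference -2.18; adjusted p = 0.000147, limma). Also called lower were Ppargc1a (-2.27), a coactivator of the slow oxidative programme, Eya1 (-1.55), Six4 (-1.30), Vgll2 (-0.96), Mef2c (-0.75) and Mef2a (-0.52). Mef2a lost its call with the length and GC trend removed. The gene called higher was Nfix (0.38; adjusted p = 0.0465), a factor of the fetal programme, and its call was lost in 10 of the 12 fits that left out 1 library. Prox1, Tbx15, Nfatc1, Mef2d, Tead1 and Tead4 did not pass. Troponins of fast and slow fibres were higher in 6 of 6 genes, among them the slow and cardiac Tnnc1 (2.31) and the fast Tnnt3 (1.39), with a median of 1.13. Troponins of both fibre types thus rose.

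Markers of the labelled cell type were present. Of 7 myotube markers, 5 were called higher in the knockout libraries, among them Acta1 (skeletal actin, 4253 to 9393 normalized counts), Des and Ckm, and Ttn and Actn2 were called lower. Their summed level was 14152 to 17293 in wildtype and 24815 to 27572 in knockout libraries. Of 3 myoblast markers, Myf5 and Msc were lower, with sums of 91.4 to 181 and 21.2 to 42.9. Fibroblast markers, with 1 of 5 lower (Dcn, a call lost at -0.02 with the length and GC trend removed), summed to 46717 to 57320 and 40963 to 67979, most of it Col1a1. Endothelial markers, with 2 of 4 higher (Pecam1 and Cdh5), summed to 827 to 962 and 1130 to 1403. Pecam1 lost its call with the abundant genes left out and without wildtype replicate 1 or 3 or knockout replicate 4 or 6, so that 1 of 4 was higher, and 3 of 4 were higher without wildtype replicate 2. Smooth muscle markers, with 0 of 3 called, summed to 5505 to 6698 and 6296 to 7331, and macrophage and leukocyte markers, with 0 called of 1 tested, to 11.3 to 25.6 and 17.5 to 51.5. Cardiac markers reached at most 13.9 and the adipocyte marker Adipoq at most 0.934. No marker in the table was at 0 in all 12 libraries. The 5 myotube markers called higher moved with the label as the light chains did, while Ttn and Actn2 went the other way. The myoblast markers Myf5 and Msc moved with the label as Myh1 did. The part of these markers in the myosin differences was not tested.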

How the data were processed

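Stranded libraries were made from total RNA of primary mouse myotubes, per the labels' protocols, and 12 were analysed. The values are a signal the authors deposited as normalized counts: the tools named are Trimmomatic 0.33 for trimming, STAR 2.5.2 for alignment, RSEM 1.3.3 for counting and DESeq2 for normalization, with the build mm10, per the submitters' processing notes. RSEM shares ambiguous reads among genes by estimate. Division by the smallest value of each column gave whole reads for 100% of values within 1e-06 reads. Identifiers were named from GENCODE M21 for 19970 of 20201 genes (98.9%), and promoter sequences came from RefSeq (GRCm38.p6).

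Groups came from the genotype and treatment labels, and blocks from the title numbers. The replicate numbers, given in accession order, link no libraries. Over the 66 pairs of libraries, chi-square per degree of freedom was 2.99 or more, so no library was counted as a copy of another. Log2(normalized count + 1) was tested in limma 3.58.1 (trended prior, two-sided), and p-values were Benjamini-Hochberg adjusted over the 12553 genes whose mean reached 10, at a threshold of 0.05. Another 7648 genes lay below that mean. This test for normalized values stayed the main one although reads could be recovered. On the recovered reads, edgeR 4.0.16 (quasi-likelihood) called 2411 genes and DESeq2 1.42.0 called 2787 in the label comparison, against 2416 by limma. Single genes were also compared by exact permutation. On simulated data for the label comparison, with 200 of 12553 genes altered, the test recovered 53% of 1.5-fold and 83% of 2-fold changes. It made 2 false calls there. For the comparisons within a set it recovered 21% of 1.5-fold changes and, of 2-fold changes, 58% in set 1 and 55% in set 2. The simulated libraries held no difference between the sets, which the real ones had. The recovery given for the label comparison may therefore be too high for these data.

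The members, gene lists and tests were chosen with earlier results of these data known. The genes named are the 10 members, up to 2 called rises and 2 called falls per partner list, Egln3 and Slc2a1, and the 3 nearest patterns per member with a mean of 50 or more; further list genes were named after their values were seen. The values of 1 listed gene are not reported here. Alternatives were pseudocounts of 0.5 and 10, other filters, TMM and quantile scaling, 8 abundant genes left out, edgeR, DESeq2, the title set as a covariate and each library left out. Removing the length and GC trend was chosen after seeing the data. R 4.3.3 and Python 3.11.15 were used.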

Additional observations from a re-analysis of the deposited data

How the results depend on the processing

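No paired analysis was possible because replicate numbers were given in accession order and carry no link between libraries. The calls of Myh1, Myh4, Myl1, Myl4 and Mylpf held under the 24 alternatives of the label comparison, and that of Myh7 did not. Members called lower were 3 in place of 1 with quantile scaling, where 1056 of 12553 genes were lower. They were 3 with the abundant genes left out, where 2201 of 12545 genes were lower. Without 1 library, 1 to 2 members were lower and 4 to 5 higher, against 936 to 1254 and 1071 to 1479 of all genes. In set 1 quantile scaling gave 2 lower (1057 of all genes). In set 2 quantile scaling gave 3 lower (962 of all genes), the abundant genes left out 2 (1830) and DESeq2 2 (999). Leaving out 1 library gave 1 to 2 lower in set 2 (501 to 1417 of all genes). Between sets in wildtype libraries 0 to 1 members were higher without 1 library (Myl4 without wildtype replicate 1, Myh8 without replicate 5). Of all genes, 899 to 1323 were higher in those fits. Over all genes, leaving out the abundant genes gave 613 higher and 2201 lower (main 1277 and 1139), 712 and 2301 in set 1, 534 and 1830 in set 2, and 1457 lower between sets in wildtype and 1534 in knockout libraries. The title set as covariate gave 2000 higher and 1785 lower. Without 1 library, set 1 had 904 to 1400 higher, set 2 had 689 to 1665 higher and 501 to 1417 lower, and the comparison between sets had 512 to 865 lower in wildtype and 647 to 1535 in knockout libraries. The interaction had 16 higher and 13 lower with DESeq2, 0 lower with pseudocount 10, quantile scaling or edgeR (main 0 and 1), and 0 to 2 higher and 1 to 2 lower without 1 library. The share of Myl4 differed by 9.16 percentage points per kb of coding sequence against 5.41 per kb of merged exons, by the lengths used.

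No reversed value was a call. In set 1 Myh8 turned to 0.018 with the length and GC trend removed, and Myh3 ranged from -0.14 to 0.020 without 1 library. Between sets in wildtype libraries, quantile scaling gave Myh3 -0.054, Myh1 -0.050 and Myh7 -0.024, the abundant genes left out gave Myh1 -0.00054 and Myh4 -0.066, and leaving out 1 library gave -0.10 to 0.27 for Myh1 and -0.29 to 0.21 for Myh4. Between sets in knockout libraries, quantile scaling gave Myh3 -0.050, Myh8 -0.047, Myl1 -0.10, Myl4 -0.042 and Mylpf -0.074, the abundant genes left out gave Myh8 -0.033, Myl1 -0.013 and Myl4 -0.063, the length and GC trend removed gave Myh8 -0.050 and Myl4 -0.052, and Myl4 ranged from -0.034 to 0.072 without 1 library. In the interaction Myh3 was 0.0037 with quantile scaling, 0.0084 with the abundant genes left out and 0.0025 in DESeq2, Myh1 was -0.0085 with TMM, and with the length and GC trend removed Myh1 was -0.077, Myl1 0.0059 and Mylpf 0.10; without 1 library Myh3 ranged from -0.10 to 0.085, Myh1 from -0.18 to 0.20 and Myh7 from -0.47 to 0.94. The cause of these changes was not tested. Depth limits Myh2, at 0 to 7 reads in every library, and the wildtype values of Myl2, at 0 to 9 reads, and of Myh7, at 2 to 23 reads.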

Other observations

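The genes whose pattern over the 12 libraries was most like that of each myosin gene were listed as a description, by the root mean square distance of centred log2 levels among 8978 protein-coding genes with a mean of 50 or more. All share the libraries, so nearness carries no test. For Mylpf they were Acta1 (0.105), Des (0.105) and Tnni1 (0.107), the genes of skeletal actin, desmin and slow troponin I. For Myl4 they were Actn3 (0.0958), the fast alpha-actinin gene, which averaged 550 normalized counts in wildtype and 1393 in knockout libraries, then Tnni1 (0.101) and Ckm (0.113), the muscle creatine kinase gene. For Myh4 they were Atp2a1 (0.237), the fast-fibre calcium pump of the sarcoplasmic reticulum at 1134 and 2199, Atp5l (0.247) and Pgam2 (0.253).

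Myh1 stood nearest to Akap6 (0.168), Nrip1 (0.178) and Klhl31 (0.183), which averaged 221 and 96.0, 371 and 199, and 234 and 92.8 normalized counts in wildtype and knockout libraries. Akap6 encodes an anchoring protein for protein kinase A, and Nrip1 a nuclear receptor corepressor. Myh8 stood nearest to Myom1 (0.0969), Nrap (0.110) and Bin1 (0.112), of which Myom1 and Nrap encode sarcomere and myofibril proteins. Myh3 stood nearest to Timm44 (0.0790), Rhobtb2 (0.0799) and Pdlim3 (0.0849), and Myl1 to Tecr (0.0536), Acaa2 (0.0651) and Rps10 (0.0653). No member's label group held a library far from the others by a gap test over 20 groups of 6.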
